A study of Rattus norvegicus with 12 samples.

Results

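Interleukin-6 (IL-6) family signalling was followed through 10 genes in 12 rat RNA-seq libraries: the ligands Il6 and Lif, the receptor chains Il6st, Osmr and Lifr, the transcription factor Stat3, and the feedback inhibitors Socs1, Socs2, Socs3 and Cish. They were taken by symbol from the deposited expression table, and 10 of 10 were found, each on a single row, among 18344 rows. The titles give H9C2 cells (a line from rat embryonic heart) in all 4 groups, while the cell line label reads rat astrocytes, so the identity of the cells is unclear. All libraries came from cells exposed to oxygen-glucose deprivation and reperfusion (OGD/R, a culture model of ischaemia), and none without it was analysed here. NC and si-NC are the controls of CIRBP and si-CIRBP, 3 libraries each. CIRBP is a cold-inducible RNA-binding protein, and the labels do not say how it was supplied, how the small interfering RNA was delivered, or at what dose and time. In the table, the NC and CIRBP columns carry a prefix, ad, that the other groups lack and that no label explains.

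IL-6 family cytokines share the signalling chain gp130, which Il6st encodes. For some of these cytokines, though not for IL-6 itself, gp130 pairs with a second chain such as the LIF receptor or the oncostatin M receptor. Bound receptors activate JAK kinases, these phosphorylate STAT3, and STAT3 enters the nucleus and induces target genes, among them Socs3. SOCS proteins then bind the kinases or the receptors and switch the signal off, while CISH and SOCS2 are known best as feedback inhibitors of the STAT5 pathway. In the heart, gp130 signalling is known for its part in the response of muscle cells to injury.

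RefSeq's promoter table (build GRCr8) held 8 of the 10 genes, and for 3 of them, Cish, Socs1 and Il6, the window ended at the gene's outermost start. These 3 are shown for that reason alone, and expression levels played no part in which of the 10 are shown. Each line gives the 250 bases before the start on the gene's strand, 5′ to 3′, with motif matches in capitals: Cish at chr8:116850719-116850968 on the plus strand, Socs1 at chr10:5389324-5389573 on the plus strand and Il6 at chr4:5894576-5894825 on the minus strand.
Cish: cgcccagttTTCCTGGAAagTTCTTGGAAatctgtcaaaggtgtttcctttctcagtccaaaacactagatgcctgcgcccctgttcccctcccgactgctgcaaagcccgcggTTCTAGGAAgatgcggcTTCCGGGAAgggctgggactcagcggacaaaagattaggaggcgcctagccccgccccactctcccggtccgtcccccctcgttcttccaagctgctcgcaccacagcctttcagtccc
Socs1: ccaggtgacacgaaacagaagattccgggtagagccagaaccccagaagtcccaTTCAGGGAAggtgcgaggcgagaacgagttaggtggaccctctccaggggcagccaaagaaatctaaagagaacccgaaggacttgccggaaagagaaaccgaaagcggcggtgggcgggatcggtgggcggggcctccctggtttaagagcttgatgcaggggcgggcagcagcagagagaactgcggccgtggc
Il6: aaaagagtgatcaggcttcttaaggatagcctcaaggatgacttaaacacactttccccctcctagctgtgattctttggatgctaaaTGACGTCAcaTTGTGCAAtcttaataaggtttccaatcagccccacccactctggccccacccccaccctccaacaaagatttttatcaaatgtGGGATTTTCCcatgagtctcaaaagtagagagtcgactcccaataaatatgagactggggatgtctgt

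The capitals in the Cish window are 4 matches to the STAT motif TTCNNNGAA, at 241 to 233, 230 to 222, 136 to 128 and 119 to 111 bases before the start. Of 33469 promoter windows of that length, 7.67% held at least 1 such match and 2 windows (0.00598%) held 4 or more. The Socs1 window held 1, at 196 to 188 bases before the start. The Il6 window held none, and its capitals are a cAMP response element (TGACGTCA, 162 to 155 bases before the start, in 1.59% of windows), a C/EBP match (TTGCNNAA on the other strand, 152 to 145, in 9.22%) and a kappaB match (68 to 59, in 3.54%). All 5 motifs were searched on both strands, and the last, the AP-1 motif TGANTCA (in 6.34% of windows), had no match in these 3 windows. A match is a string of letters and not a measured binding site.

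Cirbp itself, the gene named in the group labels, was measured at 19.7 ± 0.557 FPKM (fragments scaled to transcript length and library depth; SD, n = 3) in NC and at 35.8 ± 1.27 FPKM in CIRBP. In the si arm (si-CIRBP and its control si-NC) it stood at 26.7 ± 2.43 FPKM (si-NC) against 27.6 ± 1.04 FPKM (libraries labelled si-CIRBP), so the mRNA was not lower in the latter and the label of this group is carried below as given. Depth relative to NC library 1 ran from 0.842 to 1.03, and the smallest whole fragment numbers that give each member's FPKM are stated where they are low. Library 1 stood apart in both si groups: 589 of 14257 genes in si-NC library 1 (4.13%) and 376 in si-CIRBP library 1 (2.64%) lay at least 1 log2 unit from both other libraries of their group, against 0.295% to 0.680% in the other 10 libraries. Some cell markers also separated the arms. The 4 smooth muscle markers summed to 2.98 to 7.61 FPKM in NC and CIRBP, to 109, 1362 and 1041 FPKM in si-NC libraries 1 to 3 and to 687 to 877 FPKM in si-CIRBP. The 5 of 6 fibroblast markers in the table summed to 88.9 to 90.04 FPKM in NC and 156 to 167 in CIRBP. They summed to 152, 1204 and 731 FPKM in si-NC, and to 597 to 1220 in si-CIRBP. Dcn was listed at 0 in CIRBP and had a mean of 0.00739 FPKM in NC. In NC and CIRBP nearly all of the fibroblast sum was Pdgfra (means of 86.8 and 159 FPKM). In si-NC Pdgfra was at 65.8 FPKM and the collagen gene Col1a1 at 366 FPKM, against 1.79 FPKM of Col1a1 in NC. The 10 of 12 skeletal and cardiac muscle markers in the table summed to 5.78 to 9.05 FPKM in NC and CIRBP. They summed to 12.1, 146 and 63.2 FPKM in si-NC, and to 32.5, 142 and 206 FPKM in si-CIRBP. In si-NC most of this came from Tnnt2 (mean of 31.9 FPKM), Tnnc1 (15.3), Myod1 (12.9) and Myog (8.94). Actc1 and Myh6 were lower in si-NC (0.0737 and 0.548 FPKM) than in NC (0.191 and 0.840 FPKM). Ckm was nearly level (0.330 FPKM in si-NC and 0.304 in NC). The 5 of 6 astrocyte markers in the table summed to 115 to 196 FPKM in every library, nearly all from S100b. Gfap had means of 4.50 FPKM in NC, 6.88 in CIRBP, 1.89 in si-NC and 2.76 in si-CIRBP. Slc1a3 was under 1 FPKM in NC and CIRBP and had means of 2.87 FPKM in si-NC and 3.25 in si-CIRBP. Slc1a2 and Aldh1l1 were under 1 FPKM in all 4 groups. The 3 of 7 macrophage markers in the table summed to 12.0 to 18.8 FPKM. In bulk RNA, fewer cells of a type and less RNA per cell cannot be told apart, and the part of these markers in the results below was not tested.

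Differences were tested with limma on log2(FPKM + 1) over all 12 libraries, and a gene was called at a Benjamini-Hochberg adjusted p under 0.05. Fold changes on this scale understate those of genes near or under 1 FPKM. Whether the replicates came from separate cultures is not known beyond their titles, so the p-values measure the spread between these libraries.

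In CIRBP against NC, the feedback inhibitors split: Socs1 and Socs3 rose while Cish fell. Il6st also fell, and so did Socs2 by a weak call (adjusted p = 0.0487, lost in 14 of 23 alternative fits). These were 5 of the 10 genes (2 higher, 3 lower), in a comparison that called 54% of all 14257 genes tested (19.7% higher and 34.2% lower), so the number called was near the background. The median log2 fold change of the 10 was -0.27, beside -0.08 for all genes. The 3 CIRBP libraries lay wholly outside the NC range for 9 of the 10 genes, 2 above and 7 below, as they did for 74.7% of all genes. The 4 genes apart in this sense and not called were Il6, Lif, Osmr and Stat3. A fit of the 6 NC and CIRBP libraries alone called 9 of the 10 (2 higher, 7 lower), again beside a high share of all genes (70.7%).

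In the libraries labelled si-CIRBP against si-NC, only Cish and Il6st were called among the 10, both lower, where 29.6% of all genes were called (9.08% higher, 20.5% lower). Groups did not overlap for 3 of the 10 genes, 1 higher and 2 lower, against 36.1% of all genes. The median log2 fold change of the 10 was -0.11, against -0.04 over all genes. A fit of those 6 libraries called 1 of the 10, Cish, beside 8.1% of all genes. The difference between the arms, which asks whether a gene moved differently in each, was called for 0 of the 10 by limma, beside 17.8% of all genes. The smallest unadjusted limma p-values among the 10 were 0.031 for Il6st and 0.0362 for Socs1, and they are not to be read against that share.

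**Figure D1:**
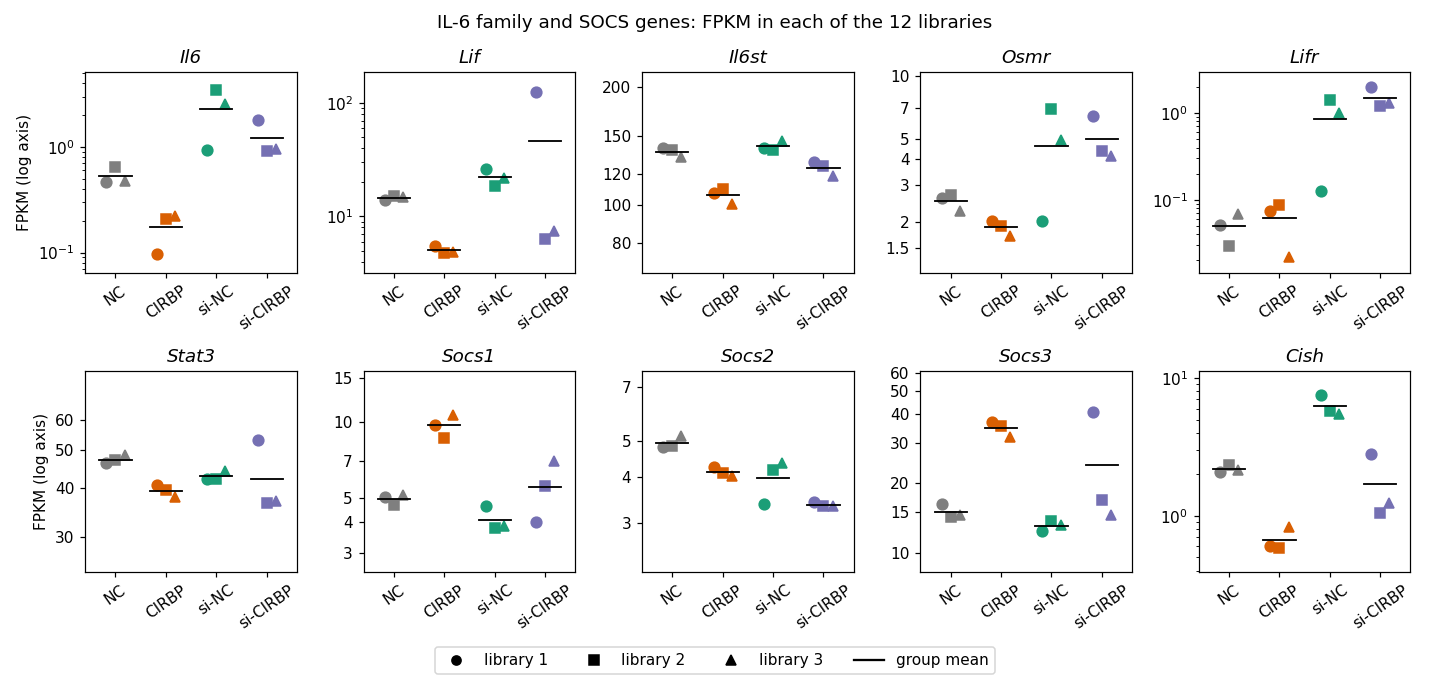
FPKM on log axes (vertical) of the 10 genes in the 4 groups (horizontal), with circles, squares and triangles for libraries 1, 2 and 3 and a bar at each group mean. Lif in si-CIRBP library 1 (126 FPKM) lies far above libraries 2 and 3 (6.28 and 7.37 FPKM), and Cish is lowest in the 3 CIRBP libraries.

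Among the ligands, Il6, the cytokine that gives the family its name, was a rare transcript. It was at 0.466, 0.649 and 0.474 FPKM in NC libraries 1 to 3 (14, 17 and 12 fragments) and at 0.0968, 0.205 and 0.223 FPKM in CIRBP (3, 6 and 6 fragments). Every CIRBP library lay below every NC library, and the means differed 3.02-fold. Because the values lie under the pseudocount, the log2 fold change was only -0.38 (SE 0.263, adjusted p = 0.254). The 6-library fit gave an adjusted p of 0.0033. Over the 18 of 23 alternatives that tested Il6 the adjusted p ran from 0.0033 to 0.43.

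In the other arm Il6 stood at 0.933, 3.42 and 2.54 FPKM in si-NC (27, 100 and 70 fragments) and at 1.78, 0.907 and 0.963 FPKM in si-CIRBP (54, 28 and 26 fragments). The groups overlapped, because si-NC library 1 was as low as si-CIRBP libraries 2 and 3. The log2 fold change was -0.51 (SE 0.263, adjusted p = 0.173). Without si-NC library 1 it was -0.86 with an adjusted p of 0.00599 (0.00599 to 0.368 over the 18 of 23 alternatives that tested Il6). Only 3 of 12 libraries reached 1 FPKM, so Il6 sat at the edge of the filter on low values. They were si-NC libraries 2 and 3 and si-CIRBP library 1. Leaving out any of them removed Il6 from the test, so the omission of its higher si-NC values could not be tried.

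Lif, leukemia inhibitory factor, was the more abundant ligand. It measured 14.02, 15.1 and 14.8 FPKM in NC against 5.53, 4.79 and 4.87 FPKM in CIRBP. The CIRBP values were tight and all lay under the NC values, a 2.90-fold difference of means. In the fit of 12 libraries the log2 fold change was -1.37 with a wide error (SE 0.834, adjusted p = 0.194), and in the fit of these 6 libraries the SE was 0.0606 and the adjusted p 5.61e-06 (6.34e-07 to 0.299 over all alternatives).

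Without library 1 of si-CIRBP, which enters the fit of 12 libraries through the shared error, the adjusted p of this comparison was 4.21e-06. Lif was 26.4, 18.5 and 21.9 FPKM in si-NC and 126, 6.28 and 7.37 FPKM in si-CIRBP, so that library 1 of si-CIRBP was 18.5 times the mean of the other libraries of its group (8146 fragments against 413 and 424). The si-CIRBP group thus held both the highest Lif value of the series and 2 values below every si-NC library. Its log2 fold change was -0.22 (95% interval -2.07 to 1.63, adjusted p = 0.871) and became -1.56 without si-CIRBP library 1 (adjusted p = 2.43e-05, 1.37e-05 to 0.953 over all alternatives).

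Turning to the receptors, Il6st, the common chain gp130, was the most abundant of the 10 in every library in FPKM, a unit scaled to transcript length, although Lif came close in si-CIRBP library 1 (126 FPKM against 129 FPKM). It measured 140, 138 and 132 FPKM in NC and 107, 110 and 100.5 FPKM in CIRBP. All CIRBP values were lower, and Il6st fell by 0.37 on the log2 scale (SE 0.0512, adjusted p = 0.000138). Over all alternatives the log2 fold change ran from -0.39 to -0.22, and 0 of 23 lost the call.

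In si-NC, Il6st was at 140, 138 and 146 FPKM, and in si-CIRBP at 129, 126 and 118 FPKM. These groups also did not overlap, and the decrease was smaller, -0.19 (SE 0.0512, adjusted p = 0.0191). The call was lost in 6 of 23 alternatives (adjusted p from 0.00936 to 0.36 over all). Both other scalings lost it, with -0.07 for scaling to one median (adjusted p = 0.36) and -0.11 for median ratios (adjusted p = 0.145). The omission of si-NC library 3 (adjusted p = 0.0713) or si-CIRBP library 3 (adjusted p = 0.0698) lost it as well. So did the 6-library fit (adjusted p = 0.136) and the variance factor per group (adjusted p = 0.176). The difference between the arms was -0.18 (95% interval -0.34 to -0.02, adjusted p = 0.114).

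Osmr, the receptor chain for oncostatin M, was at 2.61, 2.69 and 2.27 FPKM in NC and at 2.03, 1.92 and 1.72 FPKM in CIRBP. All 3 CIRBP values were below the NC values, with a log2 fold change of -0.29 that was not called (SE 0.285, adjusted p = 0.434) and was called in the 6-library fit (adjusted p = 0.0117, 0.0117 to 0.644 over all alternatives). In si-NC it was at 2.02, 6.96 and 4.92 FPKM and in si-CIRBP at 6.43, 4.39 and 4.12 FPKM. The odd value in each of these groups was library 1, low in si-NC and high in si-CIRBP, and the fold change of 0.18 (adjusted p = 0.688) turned to -0.39 when both were left out (adjusted p = 0.0439, 0.0439 to 0.987 over all alternatives).

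Lifr, the receptor chain for LIF, separated the arms rather than the treatments. It was at 0.0516, 0.0296 and 0.0690 FPKM in NC (8, 4 and 9 fragments) and at 0.0751, 0.0863 and 0.0216 FPKM in CIRBP (12, 13 and 3 fragments), which overlap. In si-NC it was at 0.127, 1.41 and 0.993 FPKM (19, 213 and 141 fragments) and in si-CIRBP at 1.99, 1.22 and 1.31 FPKM (311, 194 and 182 fragments). Every si library was above every NC and CIRBP library, and si-NC library 1 came closest to them. Lifr reached 1 FPKM in 4 of 12 libraries. Its log2 fold change was 0.01 in CIRBP against NC (95% interval -0.51 to 0.54) and 0.50 in si-CIRBP against si-NC (95% interval -0.03 to 1.03, adjusted p = 0.144). The latter reached an adjusted p of 0.0344 without si-NC library 2, and 0.789 without library 1 of both si groups. Over the 22 of 23 alternatives that tested Lifr it ran from 0.0344 to 0.789.

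Downstream of the receptors, Stat3, the main transcription factor of the pathway, varied least together with Il6st and Socs2. It was at 46.3, 47.1 and 48.7 FPKM in NC and at 40.8, 39.5 and 38.0 FPKM in CIRBP. The groups did not overlap, and the means differed 1.201-fold, which the fit of 12 libraries did not call (log2 fold change -0.26, SE 0.116, adjusted p = 0.0823) and the 6-library fit did (adjusted p = 0.000519, 0.000155 to 0.486 over all alternatives). With libraries scaled to one median this value was -0.11.

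In si-CIRBP and si-NC Stat3 was at 42.1, 42.3 and 44.2 FPKM in si-NC and at 53.3, 36.6 and 37.0 FPKM in si-CIRBP. Again si-CIRBP library 1 lay above the si-NC range and the other 2 below it. The log2 fold change was -0.04 (95% interval -0.30 to 0.21, adjusted p = 0.824) and -0.22 without that library (adjusted p = 0.0035, 0.00325 to 0.932 over all alternatives). These are transcript levels, and the phosphorylated form of the protein was not measured.

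Of the inhibitors, Socs3, which binds gp130 and is itself a STAT3 target, showed the largest increase among the 10 in the CIRBP arm. It was at 16.2, 14.3 and 14.5 FPKM in NC and at 37.0, 35.5 and 31.7 FPKM in CIRBP. The groups were far apart, the means differed 2.31-fold, and Socs3 rose by 1.16 on the log2 scale (SE 0.282, adjusted p = 0.00521); none of the 23 alternatives lost the call. In si-NC it was at 12.5, 13.7 and 13.2 FPKM and in si-CIRBP at 40.7, 16.9 and 14.6 FPKM. All 3 si-CIRBP values were above the si-NC values, 1 of them far above, and the log2 fold change of 0.68 had an adjusted p of 0.0946.

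The size of the Socs3 difference in the si arm depended on single libraries. It was 0.95 without si-CIRBP library 3 (adjusted p = 0.0278) and 0.21 without library 1 of both si groups (adjusted p = 0.101; 0.0278 to 0.274 over all alternatives). The difference between the arms was 0.47 (adjusted p = 0.463), and 0.91 without si-CIRBP library 1 (adjusted p = 0.000541, 0.000435 to 0.753 over all alternatives).

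Socs1, an inhibitor of JAK kinases known also as a target of interferon signalling, was at 5.02, 4.67 and 5.13 FPKM in NC and at 9.79, 8.66 and 10.7 FPKM in CIRBP. The levels nearly doubled, 1.97-fold in the means, without overlap, and Socs1 rose by 0.85 on the log2 scale (SE 0.151, adjusted p = 0.000721) in the main fit and in 23 of 23 alternatives. In si-NC it was at 4.61, 3.78 and 3.84 FPKM and in si-CIRBP at 3.98, 5.54 and 7.02 FPKM. Here the groups overlapped through library 1 of each, with a log2 fold change of 0.34 (SE 0.151, adjusted p = 0.121), which was 0.52 without si-CIRBP library 1 (adjusted p = 0.00633, 0.00306 to 0.374 over all alternatives). The difference between the arms was 0.51 (adjusted p = 0.126) and reached an adjusted p of 0.0332 without si-CIRBP library 3 (0.0332 to 0.241 over all alternatives).

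Cish, the inhibitor whose promoter window held the 4 STAT motif matches printed above, was the only one of the 10 called in both arms and between the controls under each alternative tried. It was at 2.06, 2.33 and 2.14 FPKM in NC and at 0.606, 0.587 and 0.822 FPKM in CIRBP, a 3.24-fold difference of means. No value overlapped, and Cish fell by 0.93 on the log2 scale (SE 0.207, adjusted p = 0.00304). In si-NC it was at 7.50, 5.72 and 5.49 FPKM and in si-CIRBP at 2.83, 1.05 and 1.23 FPKM, a 3.66-fold difference. Again no value overlapped, with si-CIRBP library 1 the closest to the controls, and the log2 fold change was -1.47 (SE 0.207, adjusted p = 0.000588). The difference between the arms was 0.54 (95% interval -0.11 to 1.19, adjusted p = 0.236) and 0.82 without si-CIRBP library 1 (adjusted p = 0.006, 0.00265 to 0.618 over all alternatives).

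Socs2, known for restraining growth hormone signalling, moved little. It was at 4.82, 4.86 and 5.14 FPKM in NC and at 4.25, 4.10 and 4.02 FPKM in CIRBP. The groups did not overlap, but the decrease of 0.21 on the log2 scale (SE 0.0824, adjusted p = 0.0487) was lost in 14 of 23 alternatives, among them the omission of any single NC or CIRBP library and of si-CIRBP library 2 or 3 (adjusted p from 0.061 to 0.143) and scaling to one median (-0.09, adjusted p = 0.42). In si-NC it was at 3.38, 4.18 and 4.35 FPKM and in si-CIRBP at 3.42, 3.33 and 3.35 FPKM. The lone overlap came from si-NC library 1, and the log2 fold change of -0.18 had an adjusted p of 0.128, or 0.0154 without that library (0.00663 to 0.475 over all alternatives).

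**Figure D2:**
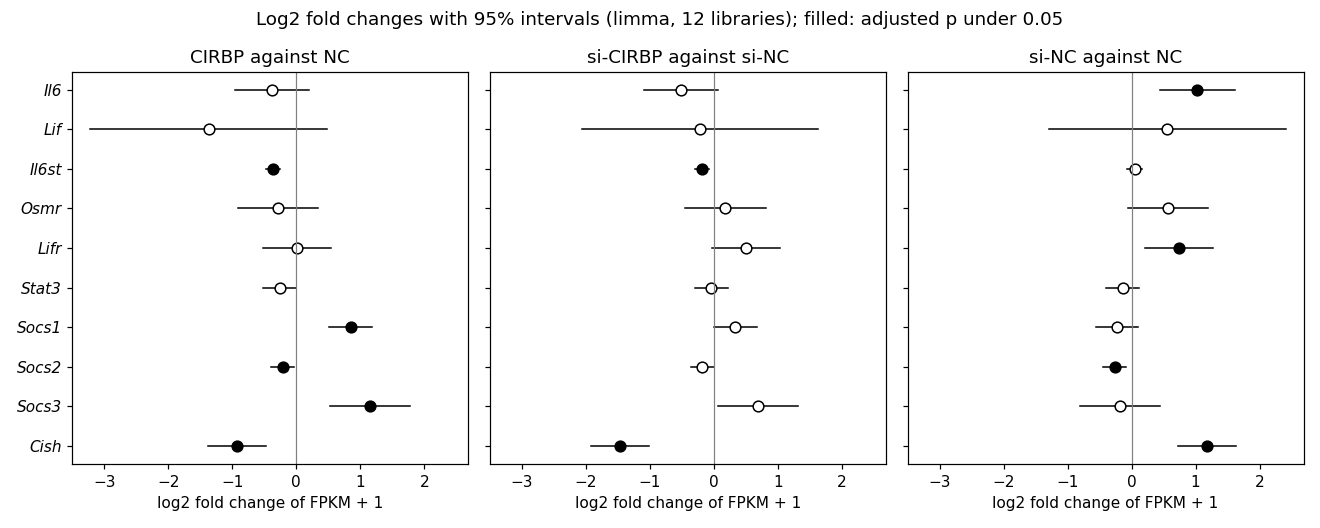
Log2 fold change of FPKM + 1 (horizontal) with 95% intervals for the 10 genes (vertical) in 3 comparisons, with filled points where the adjusted p was under 0.05. The interval of Lif is the widest in each panel, and Cish is filled in all 3.

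The control groups were themselves unlike. In si-NC against NC, which shares its libraries with both arms, Cish was higher by 1.18 (SE 0.207, adjusted p = 0.00245), Il6 by 1.03 (SE 0.263, adjusted p = 0.0136) and Lifr by 0.74 (SE 0.239, adjusted p = 0.0349) on the log2 scale, and Socs2 was lower by 0.26 (SE 0.0824, adjusted p = 0.0319). Il6 and Lifr passed the filter on low values only through si libraries, the side on which they were higher, so their calls here support nothing beyond the values given; with 6 libraries at 1 FPKM required, neither was tested and 2 members were called, 1 higher (Cish) and 1 lower (Socs2). These 4 of 10 genes (3 higher, 1 lower) stood beside 34.4% of all genes (12.5% higher, 21.9% lower), and the control groups did not overlap for 8 of the 10 genes against 53.1% of all. In means, Lifr was 16.9-fold, Il6 4.34-fold and Cish 2.87-fold higher in si-NC than in NC. The Lifr call was lost in 9 of 22 alternatives, including the omission of any NC library, CIRBP library 1 or 2, or si-NC library 2 or 3 (adjusted p from 0.0508 to 0.122). The Socs2 call was lost in 8 of 23, including the omission of any NC library or si-NC library 1 (adjusted p from 0.0615 to 0.106). For Osmr the log2 fold change was 0.57 (adjusted p = 0.148) and 0.96 without si-NC library 1 (adjusted p = 0.00166, 0.000172 to 0.479 over all alternatives), and for Lif it was 0.56 (adjusted p = 0.64) and 0.56 again without si-CIRBP library 1 (adjusted p = 0.00353, 0.00295 to 0.754 over all alternatives). The smooth muscle, muscle and fibroblast marker sums given above differed in the same direction between these controls, and their part in these differences was not tested.

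By group mean, Lif, Osmr and Lifr were highest in si-CIRBP and next in si-NC, with overlap between these groups. The place of Lif rests on si-CIRBP library 1, since the mean of si-CIRBP libraries 2 and 3 (6.83 FPKM) was below every NC library. Il6 was highest in si-NC, then si-CIRBP, NC and CIRBP, and of these neighbours only si-NC and si-CIRBP overlapped. Socs1 and Socs3 had the same order, CIRBP, si-CIRBP, NC, si-NC, and CIRBP was clear of si-CIRBP for Socs1 but overlapped it for Socs3 through si-CIRBP library 1. Cish and Il6st shared the order si-NC, NC, si-CIRBP, CIRBP, with NC and si-CIRBP overlapping for Cish and si-NC and NC overlapping for Il6st. Stat3 and Socs2 were highest in NC, clear of the next group, and the other neighbours in their orders overlapped.

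The libraries numbered 1 in the si groups differed from their group in opposite directions for several of the 10. In si-CIRBP library 1, the ratio to the mean of libraries 2 and 3 was 18.5 for Lif, 2.59 for Socs3, 2.48 for Cish, 1.91 for Il6, 1.58 for Lifr, 1.51 for Osmr, 1.45 for Stat3 and 0.634 for Socs1. Over the 18 genes known as STAT3 targets in the table, the ratio in this library ran from 0.973 to 5.94 (median 1.44). The same ratios were not taken over all genes, so these values show nothing particular to STAT3 targets. The 4 highest ratios were 5.94 for Zfp36, which speeds the decay of inflammatory mRNAs, 3.87 for the AP-1 component Junb, 3.76 for the angiogenic factor Vegfa and 3.55 for the iron-binding protein Lcn2. In si-NC library 1 the ratio was 0.106 for Lifr, 0.313 for Il6 and 0.34 for Osmr, and 1.34 for Cish and 1.30 for Lif. The cytokine Ctf1 (0.11), Stat6 (0.156), the protease inhibitor Timp1 (0.174) and the IL-11 receptor chain Il11ra1 (0.178) were low in it as well. Over the 18 STAT3 targets the ratio in si-NC library 1 ran from 0.0805 to 1.46 (median 0.908), again without the same ratios over all genes. Its smooth muscle marker sum of 109 FPKM was also a small share of the 1362 and 1041 FPKM in libraries 2 and 3.

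**Figure D3:**
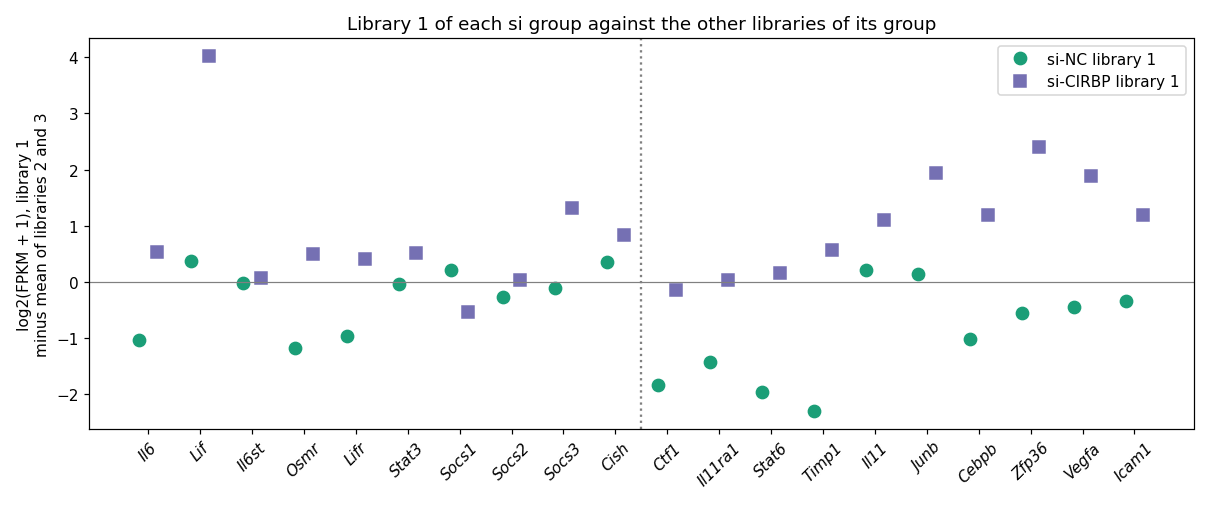
Log2(FPKM + 1) in library 1 minus its mean in libraries 2 and 3 (vertical) for the 10 genes and, right of the dotted line, 10 other pathway genes (horizontal), with circles for si-NC and squares for si-CIRBP. Lif stands highest in si-CIRBP library 1, while Il6, Osmr and Lifr lie near or below -1 in si-NC library 1.

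With library 1 of both si groups left out, a choice made after the values were seen, 9 of the 10 genes were tested, since Il6 no longer passed the filter. CIRBP against NC then called 8 of them (2 higher, 6 lower) beside 67.7% of all genes. The comparison of si-CIRBP with si-NC called 7 (1 higher, 6 lower) beside 42% of all genes: Socs1 was higher by 0.59, and Lif (-1.44), Cish (-1.63), Osmr (-0.39), Socs2 (-0.28), Stat3 (-0.23) and Il6st (-0.22) were lower on the log2 scale. The difference between the arms was called for Socs3 (0.95, adjusted p = 0.000435) and Cish (0.70, adjusted p = 0.00265), beside 41.6% of all genes. For Lif the difference was 0.07, with fold changes of -1.37 and -1.44 in the arms. The control groups differed for 7 of the 9 (4 higher, 3 lower) beside 57.6% of all genes.

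The rest of the pathway was read from lists of 59 genes, of which 51 were in the table and 48 were tested. In CIRBP against NC 27 were called, 8 higher and 19 lower, and in si-CIRBP against si-NC 16, 1 higher and 15 lower. These are 56.2% and 33.3% of the 48, near the 54% and 29.6% of all genes called, so the counts by list below are descriptions and show nothing particular to the pathway. The median log2 fold changes of the 48 were -0.19 and -0.12, beside -0.08 and -0.04 for all genes. When libraries were scaled to one median, the median over all genes went from -0.08 to 0.03 in the CIRBP arm and from -0.04 to 0.06 in the si arm, and the share of all called genes that were higher from 36.6% to 52.1% and from 30.7% to 56.0%.

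Of the 5 other ligand genes tested, 4 fell in CIRBP against NC and none rose, where 54% of all genes were called and 34.2% were called lower. They were Il11, a cytokine that acts through gp130 (2.77 ± 0.288 FPKM in NC and 1.04 ± 0.13 in CIRBP; log2 fold change -0.89, adjusted p = 0.012), Cntf, ciliary neurotrophic factor (4.12 ± 0.134 and 2.27 ± 0.164 FPKM; -0.65, adjusted p = 0.00121), Clcf1, a relative of Cntf (7.91 ± 0.219 and 5.43 ± 0.327 FPKM; -0.47, adjusted p = 0.00121), and Ebi3, a subunit of IL-27 (1.42 ± 0.092 and 0.352 ± 0.0932 FPKM; -0.84, adjusted p = 0.000342). In the si arm 1 of the 5 was called, Clcf1, which fell by 0.34 (adjusted p = 0.0163). That call was lost in 4 of 23 alternatives, among them the omission of si-NC library 3 (highest adjusted p 0.135).

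Among the other receptor genes 3 were tested, and 2 were called higher in CIRBP, where 19.7% of all genes were: Il6r, the IL-6 binding chain, by 0.30 (5.57 ± 0.435 FPKM in NC and 7.08 ± 0.104 in CIRBP; adjusted p = 0.0189) and Il27ra, the IL-27 receptor chain, by 0.28 (adjusted p = 0.0306). The Il6r call was lost in 3 of 23 alternatives, without NC library 1, CIRBP library 1 or CIRBP library 2 (highest adjusted p 0.0792), and the Il27ra call in 6 of 22, including the omission of any NC library or CIRBP library 1 or 2 (highest adjusted p 0.108). None of the 3 was called in the si arm. Il27ra was at 0.855 ± 0.0641 FPKM in NC and 1.25 ± 0.119 in CIRBP. It was under 1 FPKM in every NC library and passed the filter on low values with the help of the CIRBP libraries. Its call in CIRBP therefore supports nothing beyond these values. Of 3 receptors that signal through STAT5, 1 was in the table, Epor, and it was not tested because its values were low.

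Of the 8 JAK kinases and adaptors, 3 were called in CIRBP against NC (37.5%, beside 54% of all genes). Gab1, an adaptor that links gp130 to other kinases, fell by 0.89 (20.9 ± 0.751 FPKM in NC and 10.9 ± 0.408 in CIRBP; adjusted p = 2.26e-06), Tyk2 fell by 0.32 (adjusted p = 0.00399), and Jak1 rose by 0.15 (adjusted p = 0.0212), a call lost in 4 of 23 alternatives, without NC library 2 or 3 or CIRBP library 1 or 2 (highest adjusted p 0.0762). In the si arm Gab1 fell by 0.29 (adjusted p = 0.00918, and up to 0.117 in the 3 of 23 alternatives that lost it) and Jak2 by 0.32 (adjusted p = 0.0407, lost in 15 of 23, including the omission of any NC or CIRBP library, si-NC library 1 or 3, or si-CIRBP library 2 or 3, with a highest adjusted p of 0.198).

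Among the other STAT genes, 4 were tested, and 2 were called lower in CIRBP and 1 in si-CIRBP, with none higher, shares of 50% and 25% beside 54% and 29.6% of all genes. Stat2, a factor of interferon responses, went from 19.0 ± 0.416 FPKM in NC to 14.1 ± 0.847 in CIRBP. It fell by 0.41 on the log2 scale (adjusted p = 0.0203), a call lost in 6 of 23 alternatives, both other scalings and the omission of NC library 2 or 3 or CIRBP library 1 or 2, with a highest adjusted p of 0.124. In the si arm Stat2 went from 28.8 ± 6.48 FPKM in si-NC to 16.4 ± 0.846 in si-CIRBP and fell by 0.75 (adjusted p = 0.00178, lost in 0 of 23).

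The other inhibitors numbered 11, and 7 were called in CIRBP against NC, 1 higher and 6 lower (63.6%, beside 54% of all genes). Ptpn6, the phosphatase SHP-1, was the one that rose, by 0.86 (1.42 ± 0.0385 FPKM in NC and 3.42 ± 0.195 in CIRBP; adjusted p = 3.77e-05). Ptpn2, a phosphatase that acts on STAT proteins, fell by 0.59 (29.6 ± 0.327 and 19.4 ± 0.629 FPKM; adjusted p = 2.28e-05), Socs4 by 0.66 (adjusted p = 0.00019) and Pias4 by 0.49 (adjusted p = 2.88e-05). In the si arm 6 of 11 were called (54.5%, beside 29.6% of all genes) and all 6 were lower, where 20.5% of all genes were called lower. Ptpn2 fell by 0.48 (adjusted p = 0.000428) and Socs6 by 0.43 (adjusted p = 0.00144, up to 0.0533 in the 1 alternative that lost it). The other calls were weaker. Socs4 fell by 0.32 (adjusted p = 0.03, lost in 8 of 23 alternatives) and Socs7 by 0.25 (adjusted p = 0.0341, lost in 16 of 23). The rest had adjusted p from 0.035 to 0.0401.

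Of the genes known as STAT3 targets, 17 were tested, and 4 rose and 5 fell in CIRBP, 52.9% beside 54% of all genes. Ccnd1, cyclin D1, rose by 1.08 (447 ± 3.22 FPKM in NC and 948 ± 20.9 in CIRBP; adjusted p = 3.24e-07). Myc, the growth regulator, fell by 1.33 (31.6 ± 0.737 and 12.0 ± 0.646 FPKM; adjusted p = 6.48e-07), Bcl3, an atypical IkB protein, by 1.42 (adjusted p = 8.75e-06) and Icam1, an adhesion molecule, by 2.43 (79.0 ± 0.671 and 13.8 ± 0.0516 FPKM; adjusted p = 2.01e-05).

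In the si arm 1 of the 17 rose and 5 fell (35.3%, beside 29.6% of all genes). Myc fell by 1.46 (26.4 ± 2.36 FPKM in si-NC and 8.98 ± 1.09 in si-CIRBP; adjusted p = 2.01e-06), Cebpd, a transcription factor of the acute-phase response, by 0.76 (adjusted p = 0.000507) and Fosl2, an AP-1 component, by 0.78 (adjusted p = 0.000609). Ccnd1 rose by 0.27 (adjusted p = 0.00887, lost in the 6-library fit with an adjusted p of 0.126). Between the controls, Lcn2 went from 0.281 ± 0.148 FPKM (NC) to 58.7 ± 13.9 FPKM (si-NC; log2 fold change 5.52, adjusted p = 4.71e-05), and Cebpd was 10.3 ± 0.397 and 87.1 ± 6.5 FPKM (2.96, adjusted p = 3.91e-07). Lcn2 was under 1 FPKM in every NC and CIRBP library and passed the filter on low values only through si libraries. Its call here therefore supports nothing beyond the values given.

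**Figure D4:**
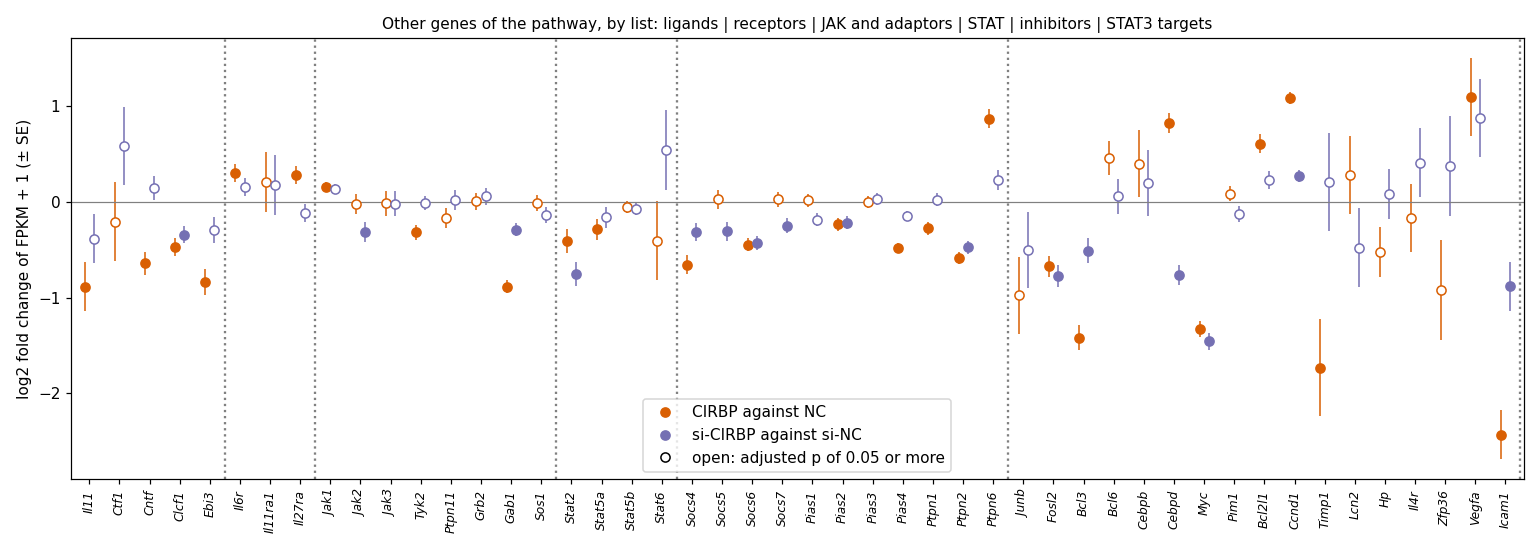
Log2 fold change of FPKM + 1 with its SE (vertical) for the 48 other pathway genes tested (horizontal, grouped by list), in orange for CIRBP against NC and in purple for si-CIRBP against si-NC, with open points where the adjusted p was 0.05 or more. Stat2 and Myc are filled and below 0 in both, and Cebpd is filled above 0 in one and below 0 in the other.

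The genes whose log2(FPKM + 1) followed Socs3 most closely over the 12 libraries, out of 11041 searched, were Hpcal1 (Pearson r = 0.98), Vps25 (0.98), Pdxp (0.98), Ppm1j (0.98) and Bcl2l11 (0.97). Hpcal1 was at 40.6 ± 0.282 FPKM in NC, 74.8 ± 2.16 in CIRBP, 36.5 ± 0.14 in si-NC and, in si-CIRBP libraries 1 to 3, at 71.2, 40.8 and 39.8 FPKM. It thus shared with Socs3 both the high CIRBP group and the high si-CIRBP library 1. For Il6 the closest were Sec24d, Eif3c, Itgax, Nit1 and Pde4d (each 0.97), and Sec24d was at 17.97, 25.7 and 21.7 FPKM in si-NC libraries 1 to 3. These correlations are descriptions over libraries that share groups and the libraries that stood apart.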

How the data were processed

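Poly-A RNA of 12 libraries was sequenced in read pairs, per the labels' protocols. Per the file headers, the authors deposited a single table of FPKM with genes in rows and libraries in columns. The submitters' processing notes name Cufflinks 2.2.1, Bowtie2 2.3.3.1 and, as builds, mm10 and GRCm38, which are mouse assemblies, with no role for any of them. The identifiers are rat Ensembl genes, so no coordinates were taken from the files. Strand setting and annotation version were not given in the sources used here. Libraries were grouped by title.

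Genes were kept that reached 1 FPKM in at least 3 libraries (14257 of 18344 rows). limma 3.58.1 in R 4.3.3 fitted log2(FPKM + 1) with 1 coefficient per group over all 12 libraries (eBayes with trend, two-sided, Benjamini-Hochberg over all genes tested). FPKM give no absolute depth. Values under 0.3 FPKM fall on steps of whole fragments, which gave the relative depth of the libraries, and each member's smallest set of whole fragment numbers (tolerance 0.01; the true numbers could be a common multiple). The fit was tested on simulated data with normal noise, the same spread of a gene in all libraries and changes in the CIRBP group only. The simulation held no libraries that stood apart, so it does not show how the fit handles them. Alternatives covered the pseudocount, the filter, scaling, the variance model, the samples in the fit, a replicate block and each library left out. No paralog or overlap correction was possible without the counting rule.

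Named genes were the 10 members, up to 4 called genes with the smallest adjusted p in each pathway list and comparison, the 5 genes most correlated with Il6 and with Socs3, and Cirbp. Genes named for library 1, with a marker sum or in the Epor remark were chosen with their values in view. The members and lists were chosen with earlier results of these data known. Of the pathway lists, 2 genes are not reported here and are left out of the lists' counts.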

Additional observations from a re-analysis of the deposited data

Results flagged for a closer look

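None of the 10 IL-6 family and SOCS genes had a called difference between the arms in the fit of 12 libraries. Among the other pathway genes 9 did, where limma's test of the difference (the log2 fold change in CIRBP against NC minus that in si-CIRBP against si-NC) gave an adjusted p under 0.05. That is 18.8% of the 48 tested, near the 17.8% of all genes with such a call. The difference was 1.58 for Cebpd, 0.82 for Ccnd1 and 0.64 for Ptpn6. It was -1.54 for Icam1, -0.91 for Bcl3, -0.79 for Cntf, -0.59 for Gab1, -0.34 for Pias4 and -0.30 for Ptpn1. Cebpd was called higher in CIRBP and lower in si-CIRBP, while Icam1, Bcl3 and Gab1 were called lower in both and fell further in CIRBP. With the replicate block the calls of Icam1 (adjusted p up to 0.0619), Cntf (0.0559), Ptpn6 (0.0543) and Pias4 (0.0588) were lost, and that of Ptpn1 was lost in 16 of 22 alternatives.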

How the results depend on the processing

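Over 886 alternative values for the 10 genes, 38 lost a call, 39 gained one and 1 reversed (Osmr in si-CIRBP against si-NC, to -0.386, with library 1 of both si groups left out). Over 1276 for the named pathway genes, 154 lost a call. Members called in CIRBP against NC numbered 9 in the 6-library fit, and 8 with a variance factor per group or with both libraries 1 left out. In si-CIRBP against si-NC they numbered 1 under median-ratio scaling, the 6-library fit and the variance factor, and 7 with both libraries 1 left out. For the difference they numbered 2 with both left out, and for si-NC against NC 2 with a filter of 6 libraries and 7 with both left out. Pathway genes called in si-CIRBP against si-NC were 5 in the 6-library fit, 8 with the variance factor and 27 with both left out; for the difference 25 and for si-NC against NC 37 with both left out. All genes called in si-CIRBP against si-NC were 1155 in the 6-library fit and 2019 with the variance factor; with both left out they were 5880 for the difference and 8139 for si-NC against NC.

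Leaving out single libraries gave ranges of 4 to 7 members called in CIRBP against NC, 1 to 5 in si-CIRBP against si-NC, 0 to 2 for the difference and 2 to 5 for si-NC against NC. Pathway genes called ranged from 20 to 32, 10 to 22, 8 to 17 and 10 to 30 in the same order, and all genes called from 6551 to 8820, 3247 to 5099, 1529 to 4503 and 2950 to 6698.

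Deviations from the group means were only weakly correlated between same-numbered libraries (from -0.0898 to 0.0995). For CIRBP and NC the correlations were 0.0965, 0.0482 and 0.0995. Such values cannot decide whether same-numbered libraries shared a culture or a day. With the replicate block 4, 2, 0 and 2 members were called in the order above, 24, 11, 4 and 11 pathway genes, and 7200, 3405, 1590 and 2584 of all genes. Il6 in si-NC against NC then had an adjusted p of 0.0534. For Il6 and Lifr, 3 to 14 fragments in some libraries limit the precision.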
